A study of Mus musculus with 16 samples.

Results

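Genes of the junctions between endothelial cells were followed in lung endothelium over the course of a transplanted tumour. The 10 genes were taken by symbol from the expression table: Cdh5 of the adherens junction, Cldn5, Ocln and Tjp1 of the tight junction, Pecam1, Icam2, Esam, F11r and Jam2 of the immunoglobulin family of adhesion molecules, and the guidance receptor gene Robo4. Each symbol matched 1 of the 17715 entries of the table, and all 10 passed the filter for testing, which asked for 1 RPKM or more in 4 or more libraries and left 14303 entries. RPKM is a read count per kilobase of transcript and per megaread of library depth. Levels of different genes can be set side by side only roughly, since the lengths behind RPKM are not stated in the sources used here.

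The cells came from the lungs of C57BL/6N females and had been sorted as endothelial by flow cytometry, and the labels call the d0 mice wild-type and name no other genotype. Tumours were grown under the skin from implanted cells of Lewis lung carcinoma, a transplantable line from mouse lung. The d0 mice had none. The d15 group had its primary tumour in place, the d22 group had had it resected, and the d36 group had metastases, and each of the 4 groups had 4 libraries. Neither the age of the mice nor the sorting antibodies stand in the sources used here. The library called d36 replicate 1 has day 29 in its title and d36 in its time point field, and the latter was followed.

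The border between endothelial cells is closed by several sets of membrane proteins. In the adherens junction, VE-cadherin, the product of Cdh5, binds its like on the neighbouring cell and holds catenins inside. In the tight junction, claudins form the sealing strands and are tied to actin by ZO-1, the product of Tjp1. Immunoglobulin-family members such as PECAM-1, ICAM-2, ESAM and the JAM proteins lie in or beside these junctions and take part in the passage of leukocytes between cells. Ocln, Tjp1 and F11r are also made by epithelium, and Pecam1, Icam2 and F11r by leukocytes or platelets. In sorted cells measured in bulk, fewer cells of a type and less RNA per cell cannot be told apart.

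The promoter sequences below belong to Robo4 and F11r, which fell, and to Tjp1, which rose, and are shown so that members that moved in opposite directions can be set side by side. They come from RefSeq (build GRCm38.p6), which matched 5 of the 10 members by symbol, and they cover the stretch of the 250 bases before the RefSeq start that holds no annotated exon. Capitals mark a match to the SP1 motif GGGCGG or its reverse complement CCGCCC. Robo4 is given from chr9:37401722-37401896 on the plus strand, F11r from chr1:171437319-171437534 on the plus strand, and Tjp1 from chr7:65371245-65371494 on the minus strand, at a start that lies inside the annotated gene.
Robo4: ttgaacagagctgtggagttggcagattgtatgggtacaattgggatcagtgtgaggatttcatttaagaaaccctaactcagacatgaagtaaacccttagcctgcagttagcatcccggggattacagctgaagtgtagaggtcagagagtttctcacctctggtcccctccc
F11r: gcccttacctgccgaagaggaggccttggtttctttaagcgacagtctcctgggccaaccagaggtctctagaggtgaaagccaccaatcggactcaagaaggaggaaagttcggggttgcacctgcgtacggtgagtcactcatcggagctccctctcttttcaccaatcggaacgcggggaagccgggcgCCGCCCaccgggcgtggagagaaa
Tjp1: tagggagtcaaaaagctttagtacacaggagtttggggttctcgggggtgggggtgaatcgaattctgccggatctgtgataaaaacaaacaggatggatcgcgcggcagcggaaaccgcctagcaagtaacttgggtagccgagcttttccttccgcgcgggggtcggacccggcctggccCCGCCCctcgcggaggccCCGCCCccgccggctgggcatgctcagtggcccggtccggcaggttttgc
The 250 bases before the Robo4 start had a GC content of 49.6%, those of F11r 60.0% and those of Tjp1 63.2%, beside a median of 52.4% over 32851 promoters. The Robo4 window held none of the 3 motifs searched on both strands, which were CCGGAA (ETS factors), GGGCGG (SP1) and GTAAACA (forkhead factors). F11r held 1 SP1 match and Tjp1 held 2, with no match to the other motifs and no overlap between matches. Over all promoters, 12.0% held CCGGAA, 32.7% held GGGCGG and 3.17% held GTAAACA. These matches are descriptions of the letters and were not tied to the expression values.

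At d0 the members covered a wide range of levels, and their order in RPKM was clear down to the seventh gene. Cldn5 was the highest with 1184 ± 75.8 RPKM (mean ± SD, n = 4, as for all means that follow), before Esam with 979 ± 95.2, Pecam1 with 672 ± 40.8 and Cdh5 with 357 ± 17.1. F11r followed with 170 ± 12.0 RPKM, Robo4 with 143 ± 8.49 and Icam2 with 124 ± 7.83. In every d0 library each of these 7 genes was above the next in that order, and their ranges did not overlap, except that Robo4 and Icam2 were nearly level in 1 library, where their ratio was 1.00. Tjp1 with 34.7 ± 3.59, Ocln with 29.4 ± 3.29 and Jam2 with 26.0 ± 1.85 RPKM were the lowest, and the ranges of neighbours among these 3 overlapped. At d15, d22 and d36 Cldn5 and Esam overlapped as well, at d15 so did F11r and Robo4, and at d22 and d36 so did Esam and Pecam1, and Robo4 and Icam2.

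**Figure D1:**
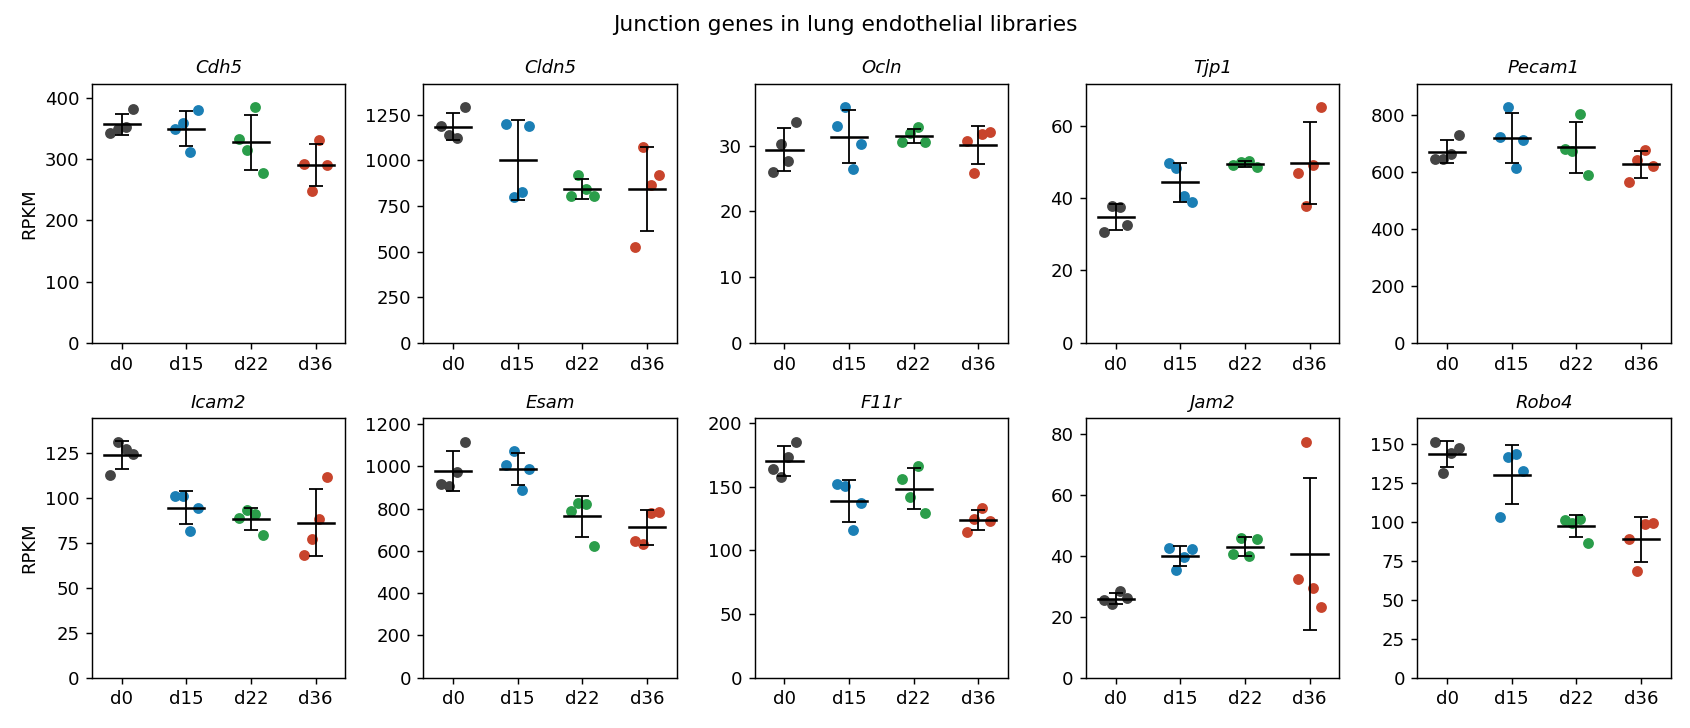
RPKM of the 10 junction genes in each library (points) by group (d0, d15, d22, d36), with the mean (horizontal bar) and SD (error bar) of 4 libraries; each vertical axis starts at 0. Robo4, Icam2 and Esam are lower at d22 and d36 than at d0 in every library, Tjp1 is above every d0 library at d15 and d22, and Jam2 has a single d36 library at 77.4 RPKM.

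The 3 comparisons with d0 use the same 4 d0 libraries, so they are not independent of each other. In limma with adjustment over all entries tested, none of the 10 members passed at an adjusted p of 0.05 at d15, where 1.18% of all entries did. At d15, 4 members had an unadjusted p under 0.05. The share of all entries under that unadjusted threshold was not counted for any comparison, so such counts have no background beside them. At d22, 3 members passed, against 15.2% of all entries: Tjp1 rose, and Icam2 and Robo4 fell. At d36, 5 members passed, against 24.0% of all entries: Tjp1 rose, and Robo4, Icam2, F11r and Esam fell. Counted by direction, 7.10% of all entries fell at d22 and 7.37% fell at d36. The median log2 fold change of the 10 members was -0.0082 at d15, -0.17 at d22 and -0.38 at d36, beside -0.017, 0.022 and 0.043 for all entries tested. Without regard to the test, the libraries of 4 members did not overlap those of d0 at d15, where this held for 12.3% of all entries. It held for 6 members at d22, against 26.5% of all entries, and for 6 at d36, against 21.4%, and all 6 at d36 were lower (Cdh5, Cldn5, Esam, F11r, Icam2 and Robo4). A moderated F test over the 3 comparisons passed 5 members (Robo4, Esam, Icam2, Tjp1 and F11r), against 28.7% of all entries, and it passed 3 without d0 replicate 1, 3 or 4.

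**Figure D2:**
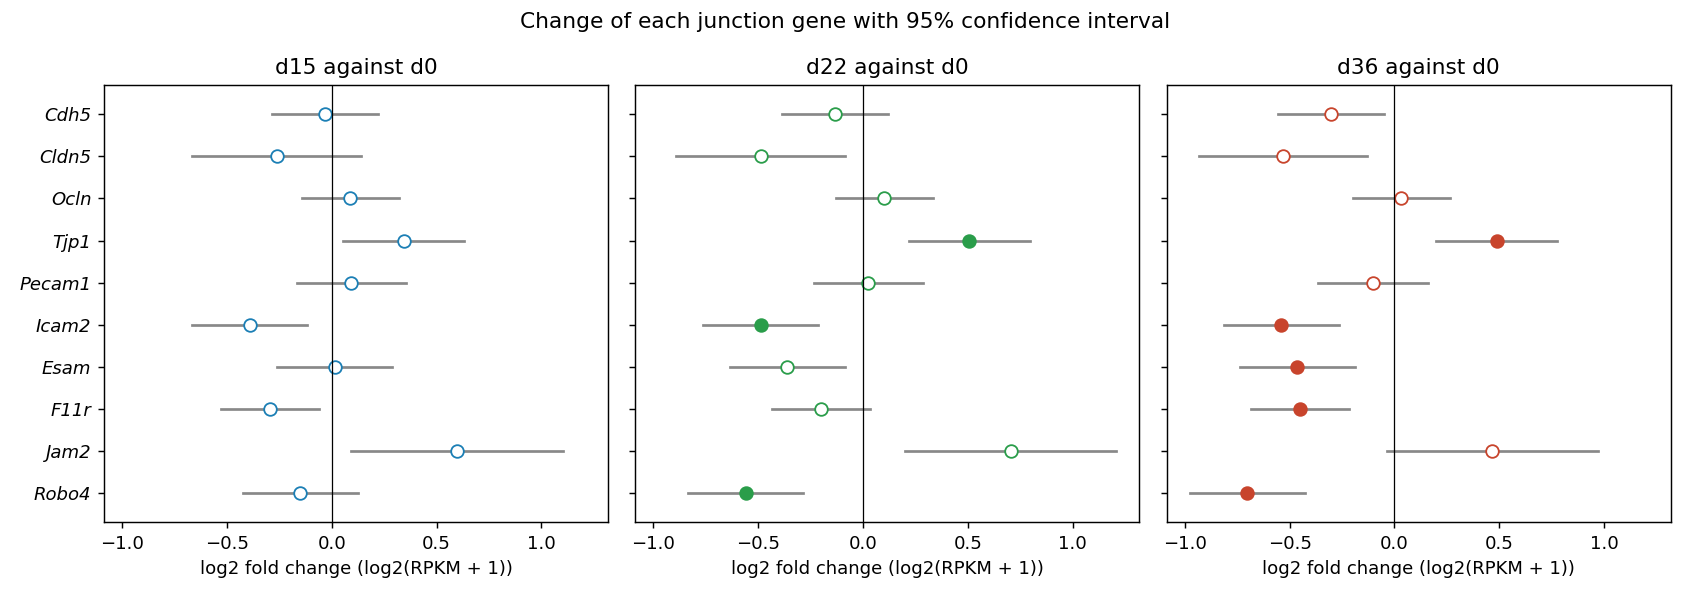
Log2 fold change of each junction gene on the log2(RPKM + 1) scale (horizontal axis) at d15, d22 and d36 against d0, with the 95% confidence interval of the limma fit (line); filled points have an adjusted p under 0.05. No point is filled at d15, 3 are filled at d22 and 5 at d36, and Tjp1 is the only filled point on the higher side.

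Cdh5 encodes VE-cadherin and lies at chr8:104101625-104144511 on the plus strand (mm10, GENCODE M21, as for all positions given with the members). It measured 343, 350, 353 and 382 RPKM at d0, and 349, 359, 311 and 380 at d15. At d22 it measured 333, 316, 385 and 277 RPKM, and at d36 293, 248, 331 and 291. The d15 and d22 libraries overlapped those of d0, and all 4 d36 libraries were below the lowest d0 library. The log2 fold change at d36 was -0.30 ± 0.12 (SE) with an adjusted p of 0.0760, so the lower level did not pass the test. At d15 and d22 the changes were -0.032 and -0.13, with adjusted p-values of 0.936 and 0.496. An annotated antisense gene, Gm29682, overlaps Cdh5 on the opposite strand, and whether counting used strand is not stated in the sources used here.

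Cldn5 encodes claudin-5, the main claudin of endothelial tight junctions, and lies at chr16:18776847-18778262 on the plus strand. Its levels were 1185, 1141, 1120 and 1290 RPKM at d0. At d15 they split into a pair of high libraries with 1201 and 1185 RPKM and a pair of low ones with 801 and 827. At d22 they were 803, 921, 844 and 807 RPKM, and at d36 526, 1071, 863 and 917. All d22 and d36 libraries were below all d0 libraries, while d15 overlapped d0. The log2 fold change was -0.49 ± 0.19 at d22 (adjusted p = 0.0938) and -0.53 ± 0.19 at d36 (adjusted p = 0.0514), and neither passed. Without d36 replicate 1, the lowest library, the d36 value was -0.32, whereas without d36 replicate 7 or 9 it was -0.66 or -0.59 and passed. Whether Cldn5 passed also depended on the setting, at d22 and at d36. At d22 it passed in the fit of the 2 groups alone (-0.49, adjusted p = 0.00794), which leaves d15 and d36 out of the error. It also passed there with the pan-endothelial mean made equal (-0.71, adjusted p = 0.00661) and with array weights (-0.48, adjusted p = 0.0210). With the library medians made equal it did not pass at d22 (-0.54, adjusted p = 0.0687) and passed at d36 (-0.67, adjusted p = 0.0184). Without the filter it did not pass at d36 (adjusted p = 0.0651).

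Ocln, which encodes the tight junction membrane protein occludin, lies at chr13:100496507-100552718 on the minus strand. It stayed between 25.8 and 35.8 RPKM in all 16 libraries. Its group means were 29.4 ± 3.29 at d0, 31.3 ± 4.02 at d15, 31.4 ± 1.11 at d22 and 30.1 ± 2.92 at d36, and all groups overlapped. The fitted change at d36 was 0.033, with a 95% interval of -0.20 to 0.27 on the log2 scale (adjusted p = 0.851), and its sign turned under other scalings.

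Tjp1 encodes the scaffold protein ZO-1 and lies at chr7:65296165-65527781 on the minus strand. It measured 30.7, 37.8, 37.6 and 32.5 RPKM at d0, and 49.7, 48.3, 40.4 and 38.8 at d15. At d22 the libraries lay close together at 49.1, 49.9, 50.3 and 48.5 RPKM, and at d36 they were spread over 46.9, 37.8, 49.1 and 65.1. Every d15 and d22 library was above every d0 library, and at d36 replicate 7 fell within the d0 range. Tjp1 rose by 0.51 ± 0.14 on the log2 scale at d22, a 1.42-fold change (adjusted p = 0.0201), and by 0.49 ± 0.14 at d36 (adjusted p = 0.0164). At d15 the difference was 0.34 ± 0.14 with an adjusted p of 0.218. The d22 call was lost without d0 replicate 1 or 4 (adjusted p = 0.0648 and 0.0583), and the d36 call stayed without any single library.

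The 2 tight junction genes that moved apart were also compared within libraries. The ratio of Cldn5 to Tjp1 was 34.6 on average at d0, with a range of 29.8 to 39.7 over the 4 libraries. It was 22.9 at d15, 17.1 at d22 (range 16.3 to 18.4) and 17.8 at d36 (range 11.2 to 28.4). All d22 and d36 libraries were below all d0 libraries in this ratio, and d15 overlapped d0. Since both values come from the same library, a factor common to all genes of a library does not change this ratio. A trend with transcript length or GC content can change it. Cldn5 has 1416 bases and 60.5% GC, and Tjp1 has 7049 bases and 46.8%. With the trend in both removed from each library, log2 fold changes at d22 were -0.30 for Cldn5 and 0.30 for Tjp1, and neither passed. At d36 they were -0.51 for Cldn5, which passed, and 0.22 for Tjp1, which did not. The ratio itself was not tested.

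Pecam1 encodes PECAM-1 (CD31), an adhesion molecule spread over endothelial borders, and lies at chr11:106654217-106750628 on the minus strand. Its levels were 645, 645, 664 and 731 RPKM at d0, between 615 and 827 at d15, between 589 and 805 at d22, and 564, 643, 678 and 620 at d36. All groups overlapped d0. The fitted change at d36 was -0.10 with a 95% interval of -0.36 to 0.16 (adjusted p = 0.583), and at d15 and d22 the sign depended on the scaling. Under quantile normalization Pecam1 passed at d36 against d0 (-0.36, adjusted p = 0.0115), against d22 (-0.33, adjusted p = 0.0322) and against d15 (-0.32, adjusted p = 0.0421). With equal medians the d36 value against d0 was -0.24 and did not pass (adjusted p = 0.180).

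Icam2 encodes ICAM-2, a ligand of leukocyte integrins, and lies at chr11:106377656-106388075 on the minus strand. At d0 it measured 113, 131, 127 and 124 RPKM. At d15 the values were 101, 101, 81.6 and 94.7 RPKM, at d22 they were 88.7, 93.3, 91.2 and 79.7, and at d36 they were 68.3, 77.2, 88.2 and 112. All 12 later libraries were below every d0 library, with d36 replicate 9 only just below. Icam2 fell by 0.49 on the log2 scale at d22 (SE 0.13, adjusted p = 0.0190), a 28.7% lower level, and by 0.54 at d36 (SE 0.13, adjusted p = 0.00723). At d15 the difference was -0.39 with an adjusted p of 0.142. The d36 call stayed without any single library, and the d22 call was lost without d22 replicate 6 (adjusted p = 0.0635) and under quantile normalization (-0.28, adjusted p = 0.170).

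Esam encodes an adhesion molecule of endothelial tight junctions and platelets and lies at chr9:37528078-37538319 on the plus strand. It measured 919, 909, 972 and 1116 RPKM at d0 and 1006, 1074, 886 and 986 at d15, and these groups overlapped. At d22 the values were 787, 825, 824 and 621 RPKM and at d36 645, 635, 779 and 785, all below the lowest d0 library. Esam fell by 0.46 at d36 on the log2 scale (SE 0.13, adjusted p = 0.0165), and at d22 the difference was -0.36 (adjusted p = 0.0700). The d36 call was lost without d0 replicate 4 or d36 replicate 1 (adjusted p = 0.0610 and 0.0508).

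F11r encodes JAM-A, a tight junction adhesion molecule shared with epithelium, leukocytes and platelets, and lies at chr1:171437535-171464603 on the plus strand. Its values were 164, 157, 173 and 185 RPKM at d0, and 152, 150, 116 and 137 at d15. At d22 they were 156, 142, 166 and 130 RPKM, which overlapped d0, and at d36 they were 115, 125, 133 and 123. The d15 and d36 libraries were all below d0. F11r fell by 0.45 at d36 on the log2 scale (SE 0.11, adjusted p = 0.00802), a call that stayed without any single library. The differences at d15 (-0.30, adjusted p = 0.190) and d22 (-0.20, adjusted p = 0.244) did not pass.

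Jam2 encodes JAM-B, a relative of JAM-A found at endothelial borders, and lies at chr16:84774123-84825928 on the plus strand. It measured 25.4, 24.0, 28.4 and 26.1 RPKM at d0, and 42.5, 35.2, 39.6 and 42.2 at d15. At d22 it measured 40.5, 45.9, 40.1 and 45.4 RPKM, and at d36 32.4, 77.4, 29.5 and 23.1. All d15 and d22 libraries were above all d0 libraries, and at d36 replicate 9 was below the d0 range and the other libraries above it. The spread at d36, a coefficient of variation of 61.2%, was the highest of any member in any group and entered the shared error of the fit. The log2 fold change was 0.60 ± 0.24 at d15 (adjusted p = 0.218) and 0.70 ± 0.24 at d22 (adjusted p = 0.0560), and neither passed. In fits of the 2 groups alone, which leave d36 out of the error, the adjusted p was 0.0103 at d15 and 9.40e-04 at d22. The d36 difference was 0.47 (adjusted p = 0.167), and it was 0.11 without d36 replicate 7 and 0.68 without d36 replicate 9, where it passed (adjusted p = 0.0254). The summed level of the 3 markers of lymphatic endothelium with values ran beside Jam2. It was 95.9 to 135 RPKM at d0, 159 to 258 at d15 and 138 to 204 at d22. In d36 replicates 1, 7, 8 and 9 it was 122, 438, 127 and 139. None of these 3 markers passed against d0, and all 3 were higher at d15 at an unadjusted p under 0.05 in limma. At d22, 2 were higher and 1 was lower at that threshold. Flt4, 1 of the 3, was lower at d22 than at d15 (-0.82, adjusted p = 0.00834). Flt4 was also lower at d36 than at d15 (-0.67, adjusted p = 0.00990). The part of these markers in the Jam2 values was not tested.

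Set against each other, F11r was 6.55 times Jam2 on average at d0 (range 6.10 to 7.09). The ratio was 3.51 at d15 (range 2.93 to 4.27), 3.49 at d22 (range 2.86 to 4.14) and 3.75 at d36 (range 1.62 to 5.33). No later library reached the d0 range in the balance of these JAM genes. The ratio joins a gene with lower later means to one with higher later means, and it was not tested. A trend with transcript length or GC content can change it. Jam2 has 4370 bases and 45.8% GC, and F11r has 2518 bases and 50.1%. With that trend removed, log2 fold changes at d36 were 0.19 for Jam2 and -0.58 for F11r. Jam2 was above Ocln in 1 of 4 libraries at d0, 3 at d15, all 4 at d22 and 2 at d36.

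Robo4 encodes a roundabout receptor largely restricted to endothelium, which stabilises vessels, and lies at chr9:37401897-37415115 on the plus strand. It measured 151, 131, 144 and 147 RPKM at d0, and 103, 142, 144 and 132 at d15, where only replicate 3 was below the d0 range. At d22 it measured 101, 99.0, 102 and 86.6 RPKM, and at d36 88.7, 68.4, 98.3 and 98.9. Every d22 and d36 library was below every d0 library. Robo4 fell by 0.56 at d22 on the log2 scale (SE 0.13, adjusted p = 0.00928), a 32.2% lower level, and by 0.70 at d36 (SE 0.13, adjusted p = 0.00130), a 38.5% lower level. It had the lowest adjusted p of the 10 members in both comparisons, and both calls stayed without any single library. Under quantile normalization the d22 value was -0.38 and did not pass (adjusted p = 0.0904).

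Libraries of the 3 later groups were then compared with each other. Between d22 and d15 no member passed, against 3.06% of all entries, and 2 members had an unadjusted p under 0.05. Esam and Robo4 were lower in every d22 library than in every d15 library, as were 4.80% of all entries, with log2 differences of -0.38 (adjusted p = 0.112) and -0.41 (adjusted p = 0.0875). Between d36 and d22 no member passed, against 11.8% of all entries, and 1 had an unadjusted p under 0.05. Between d36 and d15, Robo4 (-0.55 ± 0.13, adjusted p = 0.0118) and Esam (-0.48 ± 0.13, adjusted p = 0.0249) fell, against 11.5% of all entries. Robo4 passed this comparison without any single library, while Esam lost its call without d15 replicate 3, 4 or 6 or d36 replicate 1 or 7 (adjusted p = 0.0511 to 0.0791). Without d15 replicate 3, Robo4 passed at d22 against d15 (-0.52, adjusted p = 0.0426), and without d36 replicate 7, Jam2 passed at d36 against d22 (-0.59, adjusted p = 0.00887) and at d36 against d15 (-0.49, adjusted p = 0.0185).

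The members also differed in how they followed each other over the 16 libraries, given here as a description since libraries of a group share their time point. Esam and Robo4 had the highest Pearson r of log2(RPKM + 1) with 0.85, followed by Cdh5 and Esam with 0.83 and F11r and Icam2 with 0.74. Jam2 ran against Icam2 (r = -0.66) and Robo4 (r = -0.60), and Cldn5 against Tjp1 (r = -0.54). Among all tested genes with a mean of at least 2 RPKM, the patterns most like that of Cdh5 were those of BB166591 (r = 0.916), Sgsh (0.900), Lgals3bp (0.865), Anxa6 (0.862) and Enox2 (0.852). For Cldn5 they were Rmnd5b (r = 0.914), Cxx1b (0.905), Rabac1 (0.890), Ppdpf (0.890) and 2310011J03Rik (0.882). For F11r they were Cd40 (r = 0.944), Hdhd3 (0.899), Ppt2 (0.887), Peg12 (0.886) and Anxa6 (0.885). For Jam2, a gene chosen for this after its values were seen, the likest were Mmp2 (r = 0.935), Slc6a2 (0.886), Prss23 (0.883), Lmcd1 (0.881) and Bst1 (0.880).

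The change of a gene moved with the length and base composition of its transcript, and the members span a wide range of both. Across 9592 tested genes with an annotated transcript, the Spearman correlation of the log2 fold change with transcript length was 0.26 at d15, 0.42 at d22 and 0.23 at d36, and with GC content -0.16, -0.37 and -0.36. These are correlations across genes, which are not independent replicates. Among the members, Tjp1 has the longest transcript with 7049 bases and a GC content of 46.8%, and Icam2 and Cldn5 have the shortest with 1282 and 1416 bases, at 53.9% and 60.5%. The median over the 9592 genes was 2914 bases and 50.2%. When the trend with length and GC was taken out of each library's values, an alternative chosen after the data were seen, Robo4 was the only member that passed at d22 (-0.59, adjusted p = 0.0191). In that fit Icam2 was at -0.27 (adjusted p = 0.196) and Tjp1 at 0.30 (adjusted p = 0.164), where 7.65% of the entries passed.

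At d36 the same fit gave 7 members that fell and none that rose, where 15.1% of the entries fell and 25.2% passed in all. Robo4 (-0.77, adjusted p = 0.00159), F11r (-0.58, adjusted p = 0.00134), Icam2 (-0.55, adjusted p = 0.00633) and Esam (-0.49, adjusted p = 0.00992) kept their calls. Cldn5 (-0.51, adjusted p = 0.0236), Cdh5 (-0.40, adjusted p = 0.0199) and Ocln (-0.31, adjusted p = 0.0400) passed here and not in the values as deposited over all 14303 entries. Cldn5 also passed in the deposited values when only the 9592 entries with a transcript were fitted (-0.53, adjusted p = 0.0444). Tjp1 was at 0.22 with an adjusted p of 0.233. The rise of Tjp1 thus passed in the values as deposited and not after the trend was removed, at d22 and at d36.

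**Figure D3:**
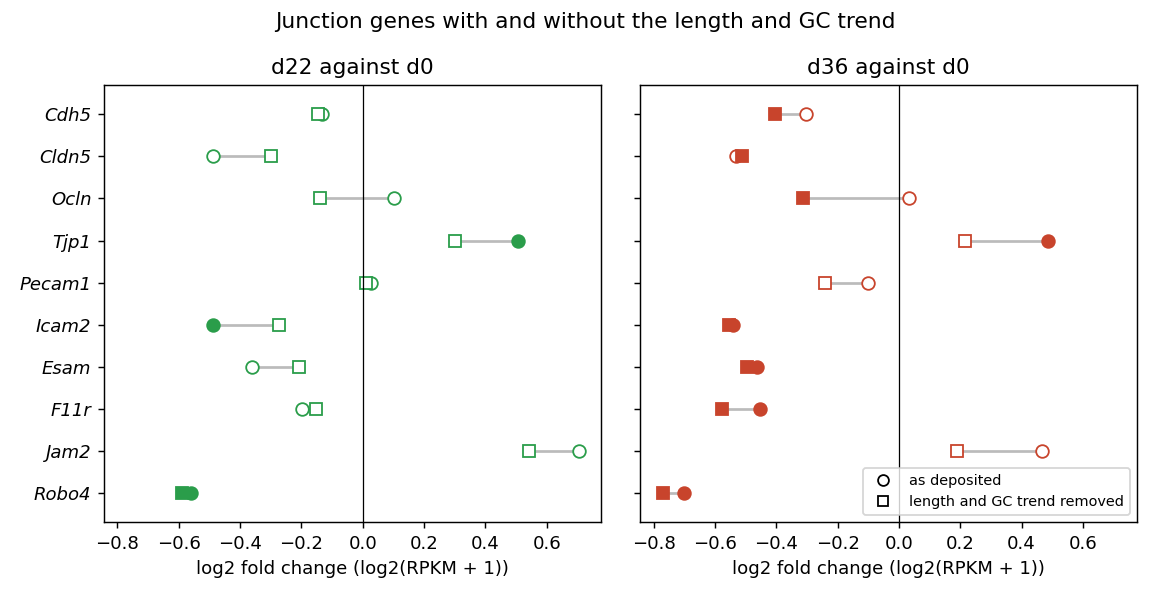
Log2 fold change of each junction gene on the log2(RPKM + 1) scale (horizontal axis) at d22 and d36 against d0, in the values as deposited (circles) and with the trend in transcript length and GC content removed (squares); filled symbols have an adjusted p under 0.05. The Robo4 symbols lie close together in both panels, and Tjp1 moves towards 0 and loses its fill.

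The authors' deposited table gives its own log2 fold changes and adjusted p-values for the same days, with no comparison group named in its header. All 10 members lay within 0.2 of the log2 fold changes against d0 given above on each day. In the authors' deposited table, 3 members passed at d15 (Jam2 with 0.66, Tjp1 with 0.40 and Icam2 with -0.34), where 7.89% of its entries passed. At d22 the authors' deposited table has 6 members that passed, against 25.6% of entries: Jam2 (0.75) and Tjp1 (0.54) higher, and Robo4 (-0.53), Icam2 (-0.46), Cldn5 (-0.45) and Esam (-0.32) lower. At d36 the authors' deposited table has 6 as well, against 22.2% of entries: Tjp1 (0.51) higher, and Robo4 (-0.70), Icam2 (-0.52), Esam (-0.47), F11r (-0.46) and Cdh5 (-0.31) lower. The adjusted p-value of Jam2 in the authors' deposited table was 3.89e-07 at d15 and 2.79e-12 at d22.

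Other genes of the same structures were read from lists of 83 partner genes in 7 groups, of which 59 were tested. At d15, 0 rose and 1 fell, at d22, 6 rose and 1 fell, and at d36, 14 rose and 3 fell, beside 1.18%, 15.2% and 24.0% of all entries that passed in either direction. How many of all entries rose or fell at d22 and d36 depended on the scaling. Their median log2 fold change was 0.10, 0.14 and 0.11 at d15, d22 and d36, on the other side of 0 from the median of the members. Of the 7 partners that passed at d22, 6 have an annotated transcript and 4 of these passed with the length and GC trend removed, and at d36 it was 11 of 16.

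Among 10 adherens junction partners tested, Ptprb, which encodes the phosphatase VE-PTP that binds VE-cadherin, rose from 51.4 to 72.9 RPKM at d22 (0.50 on the log2 scale, adjusted p = 0.00560), and Ptprj, another receptor phosphatase, rose by 0.59 (adjusted p = 0.0415). With the length and GC trend removed neither passed, with 0.26 for Ptprb (adjusted p = 0.0761) and 0.43 for Ptprj (adjusted p = 0.176). At d36, Jup, which encodes plakoglobin, fell from 153 to 112 RPKM (-0.45, adjusted p = 0.00933). Cdh13, which encodes T-cadherin, rose from 3.90 to 13.6 RPKM at d36 (adjusted p = 0.0330), with library values of 13.5, 26.7, 8.93 and 5.11. None of the 6 tested tight junction partners passed in limma at d15, d22 or d36, and 0 had an unadjusted p under 0.05. Of 5 nectin and afadin genes, Mllt4, which encodes afadin, rose by 0.49 at d22 (adjusted p = 0.00923), and Pvr (0.64, adjusted p = 0.0252) and Pvrl2 (0.63, adjusted p = 0.0395) rose at d36. With the trend removed Pvr was at 0.47 and did not pass (adjusted p = 0.0722).

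The highest fold among the partners was that of Gja1, which encodes connexin 43 and rose from 3.98 to 42.3 RPKM at d36 (2.87 on the log2 scale, adjusted p = 1.62e-04). Its d36 libraries measured 57.7, 41.0, 60.3 and 10.1 RPKM, with replicate 9 the lowest, and the d0 libraries lay between 2.74 and 4.79. In the same d36 libraries, markers of mural cells and fibroblasts summed to 59.9, 44.8, 54.5 and 13.5 RPKM. Carcinoma markers summed to 964, 815, 616 and 58.4 RPKM there. The part of such cells in the Gja1 values was not tested. Of 9 genes of leukocyte passage, Selp (P-selectin, 1.54, adjusted p = 0.00608), Cd47 (0.51, adjusted p = 0.0141) and Icam1 (0.81, adjusted p = 0.0389) rose at d36. Selp measured 9.33, 15.5, 4.88 and 3.17 RPKM in d36 replicates 1, 7, 8 and 9. Platelet markers summed to 6.87, 16.1, 5.71 and 2.94 RPKM in these libraries, and their part in the Selp values was not tested. Icam1 measured 58.9, 90.0, 35.1 and 27.6 RPKM there, with replicate 9 within the d0 range of 22.6 to 32.4. With the trend removed Cd47 was at 0.15 and did not pass (adjusted p = 0.406). Of 4 genes of the Slit, Robo and Unc5 families, Unc5b, a netrin receptor gene, fell from 7.26 to 4.26 RPKM at d15 (-0.65, adjusted p = 0.0106) and to 5.01 at d22 (-0.46, adjusted p = 0.00888). Unc5b was back at 6.99 RPKM at d36, higher than at d22 by 0.42 (adjusted p = 0.0183), whereas Robo4 was at its lowest mean there.

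Of 21 genes of barrier signalling, 3 rose at d22, and 7 rose and 2 fell at d36. Pdcd10, a gene of the cerebral cavernous malformation complex, rose by 0.58 at d22 (adjusted p = 0.00175) and by 0.74 at d36 (adjusted p = 1.27e-04), values that were 0.35 and 0.37 and still passed with the trend removed. Heg1, which encodes a membrane partner of that complex, rose by 0.64 at d22 (adjusted p = 0.00204) and was lower at d36 than at d22 by a log2 difference of -0.60 (adjusted p = 0.00348). Tie1, which encodes an endothelial receptor kinase, fell from 444 to 276 RPKM at d36 (-0.69, adjusted p = 6.03e-04). Its d36 libraries lay between 235 and 299 RPKM and its d0 libraries between 410 and 472, with no overlap. Between the later groups, F2r, which encodes the thrombin receptor PAR1, was higher at d36 than at d22 by 1.07 (adjusted p = 0.00167) and than at d15 by 0.99 (adjusted p = 0.00232). Tie1 and Ptprb were lower at d36 than at d22, by log2 differences of -0.53 (adjusted p = 0.00786) and -0.38 (adjusted p = 0.0268). Gja1 was higher at d36 than at d22 by 3.11 (adjusted p = 3.08e-04) and than at d15 by 2.64 (adjusted p = 7.50e-04), and Unc5b was higher at d36 than at d15 by 0.60 (adjusted p = 0.00198). Mllt4 was higher at d22 than at d15 by 0.47 (adjusted p = 0.0366).

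**Figure D4:**
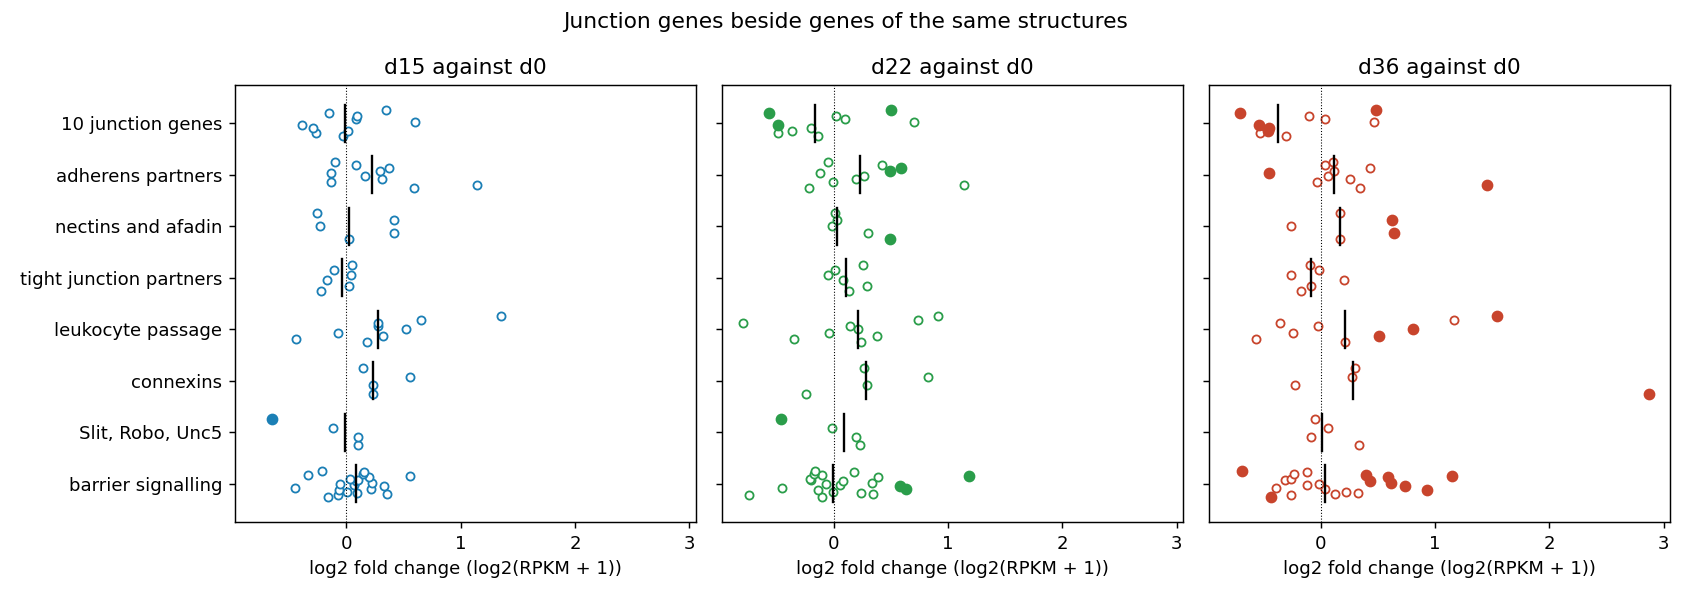
Log2 fold change on the log2(RPKM + 1) scale (horizontal axis) of each tested gene (points) in the 10 junction genes and 7 lists of partner genes (rows) at d15, d22 and d36 against d0; filled points have an adjusted p under 0.05 and the black bar is the list's median. The median of the 10 junction genes is -0.38 at d36, and Gja1 stands at 2.87 in the connexin row.

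Endothelial identity and other cell types were read from marker lists in the same libraries. All 22 pan-endothelial markers were tested, and the mean of their log2(RPKM + 1) ranged from 6.29 to 6.36 at d0, 6.36 to 6.60 at d15, 6.49 to 6.60 at d22 and 6.31 to 6.48 at d36. Of these, 5 rose at d22, and 5 rose and 3 fell at d36, with a median log2 fold change of 0.17 at d22 and 0.0081 at d36. The 3 that fell at d36 were Tie1, Mmrn2 and Egfl7.

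At d36, 7 of 8 tested leukocyte markers rose, and their summed level was 33.8 to 42.5 RPKM at d0 and 55.0 to 165 at d36. Itgam, S100a8 and S100a9 were listed at 0 in every d0 library. All 7 tested carcinoma markers rose at d36, from a summed 5.86 to 8.21 RPKM at d0 to between 58.4 and 964, and both tested platelet markers rose. None of the carcinoma, leukocyte, platelet or epithelial markers passed at d15 or d22, and at an unadjusted p under 0.05 in limma there were 0 of 7 carcinoma, 0 of 8 leukocyte, 1 of 2 platelet and 7 of 13 epithelial markers at d15, and 1, 0, 0 and 1 at d22. The summed carcinoma level was at most 15.3 RPKM at d22, and every d22 library was above every d0 library. Epithelial markers summed to 791 to 1978 RPKM at d0, 1277 to 3441 at d15, 1137 to 1634 at d22 and 467 to 1140 at d36, and their part in the Tjp1, Ocln and F11r values was not tested. Only Krt8 and Krt18, which are also on the carcinoma list, rose at d36 among the 13 tested. Of the mural and fibroblast list, 1 of 6 tested genes rose at d36, and 3 in all were higher at an unadjusted p under 0.05 in limma. This list summed to 11.6 to 17.4 RPKM at d0, and to 59.9, 44.8, 54.5 and 13.5 in d36 replicates 1, 7, 8 and 9.

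The d36 library with the least of the carcinoma and leukocyte markers was replicate 9, with sums of 58.4 and 55.0 RPKM, and it had the highest epithelial sum of the d36 libraries, 1140 RPKM. In that library Icam2 (112 RPKM), Tjp1 (65.1), Esam (785), Robo4 (98.9) and Ocln (32.1) had their highest d36 values and Jam2 (23.1) its lowest. Cdh5 (331), F11r (133) and Pecam1 (678) were instead highest in d36 replicate 8, which had the highest leukocyte sum (165 RPKM). Cldn5 (1071) was highest in d36 replicate 7. Without replicate 9 the d36 changes were -0.76 for Robo4, -0.67 for Icam2, -0.51 for Esam, -0.45 for F11r and 0.35 for Tjp1, all of which passed, and Cldn5 (-0.59) and Jam2 (0.68) passed too, so that 7 members did. The part of other cells in the d36 values of the members was not tested. 

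**Figure D5:**
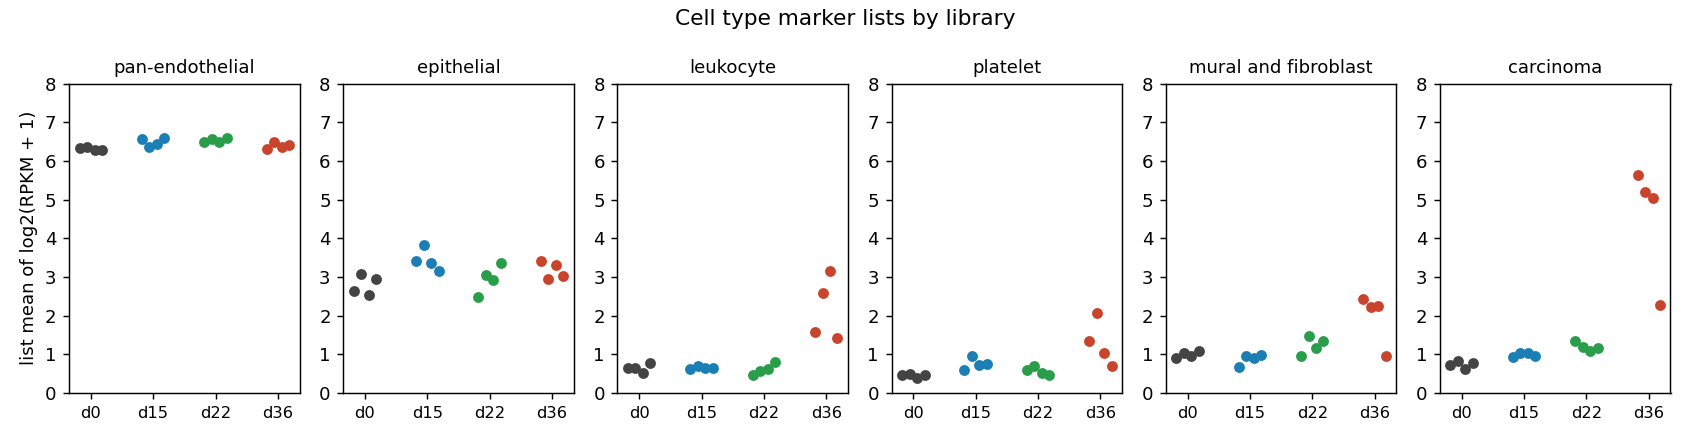
Mean of log2(RPKM + 1) over each cell type marker list (vertical axis, starting at 0) in each library (points) by group. The pan-endothelial list stays between 6.29 and 6.60 in all libraries, and the leukocyte and carcinoma lists are higher at d36, with replicate 9 (rightmost d36 point) the lowest d36 library in the carcinoma panel.

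The depth was estimated from the step between low RPKM values, at approximately 93.5 to 152.7 megareads per library. At the lowest depth the lowest member value corresponds to about 2155 reads per kilobase. Counting error was not computed. The median coefficient of variation of the members was 6.73% at d0, 12.0% at d15, 7.21% at d22 and 13.9% at d36. How libraries are scaled bore on the whole table. At d36 against d0, 2376 entries rose and 1054 fell, whereas 1500 rose and 2439 fell when the medians of the libraries were made equal. At d22, 1157 rose and 1016 fell, against 898 and 1362 with equal medians and 351 and 3030 with the pan-endothelial mean made equal. At d15, 87 rose and 82 fell, against 59 and 899 with the pan-endothelial mean equal, which moved the median of all entries to -0.19 at d15 and -0.20 at d22. Under each of these scalings and quantile normalization, Robo4, Icam2, F11r and Esam fell at d36. At d22, quantile normalization left neither Robo4 (-0.38, adjusted p = 0.0904) nor Icam2 (-0.28, adjusted p = 0.170) with a call. For Tjp1, the d36 call was lost with equal medians (0.35, adjusted p = 0.0731) and with equal pan-endothelial means (0.42, adjusted p = 0.0618). It was also lost with only the 2 groups (adjusted p = 0.0668) and with the replicate number as a block (adjusted p = 0.0729). The d22 call of Tjp1 was lost with equal pan-endothelial means (0.29, adjusted p = 0.186) and stayed with equal medians (0.45, adjusted p = 0.0369).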

How the data were processed

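RNA of sorted lung endothelial cells was measured in 16 libraries, stated in the design text to be biologically independent. Per the labels' protocols, a PicoPure kit gave the RNA, and a SMARTer Ultra Low kit turned 10 ng of it into each library. The authors' RPKM values, named so per the file headers, stand in 1 deposited table for all libraries. That deposited table also has columns of log2 fold change and adjusted p-value for each of d15, d22 and d36. The submitters' processing notes list STAR, DESeq2 and mm10, with neither versions nor roles. The annotation, the lengths behind RPKM and the strand setting are not stated in the sources used here.

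Values were analysed as log2(RPKM + 1), which understates changes of low genes. Entries that reached 1 RPKM in 4 or more libraries were fitted in limma 3.58.1 (R 4.3.3) with an intensity trend, 1 fit over the 4 groups and no covariate. The 6 contrasts were two-sided, with Benjamini-Hochberg adjustment over all 14303 entries and a threshold of 0.05. The script was tested on simulated data. Lengths, GC content and positions came from GENCODE M21, and the trend in them was removed per library with natural splines (4 degrees of freedom). Numbers shared between groups did not pair the libraries, so no block was used. Alternatives changed the pseudocount, filter, scaling, samples or weights.

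All 10 members are named in every comparison. Of each partner list, up to 3 genes per comparison with the smallest p among those that passed are named, except 2 genes of barrier signalling that are not reported here. The members, lists and tests were chosen with earlier results of these data known, and the partner and marker lists are not independent evidence.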

Additional observations from a re-analysis of the deposited data

Results flagged for a closer look

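Across the 40 sets of 4 libraries formed by 10 members and 4 groups, a library stood far from the other libraries of its group in 2 sets, and chance alone marks about 1 in 20 such sets. Both were d22 replicate 6. Esam measured 621 RPKM there, while the other d22 libraries lay between 787 and 825. Robo4 measured 86.6 RPKM there, while the other d22 libraries lay between 99.0 and 102. Both values were below the other d22 libraries and below all d0 libraries. Robo4 passed at d22 against d0 without this library too.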

How the results depend on the processing

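The numbers of members that passed moved with several choices. At d15 against d0 the number was 0, and it was 2 with the pan-endothelial mean equal, 1 with only the 2 groups and 2 with array weights. At d22 it was 3, and 5 with the pan-endothelial mean equal, 5 with only the 2 groups, 6 with array weights, 2 under quantile normalization, where Tjp1 and Jam2 rose and none fell, and 1 with the length and GC trend removed. At d36 it was 5, and 8 under quantile normalization and 3 with only the 2 groups. At d22 against d15 it was 0, and 1 with array weights. At d36 against d22 it was 0, and 2 under quantile normalization and 1 with the trend removed. At d36 against d15 it was 2, and 0 with the pan-endothelial mean equal and with only the 2 groups. The F test passed 5 members, and 8 under quantile normalization. The causes of these moves were not tested. Of all entries, 169 passed at d15, and 99 without the filter, 958 with the pan-endothelial mean equal, 478 with only the 2 groups, 737 with array weights and 24 to 89 with a library left out. At d22, 2173 passed, and 3381 with the pan-endothelial mean equal, 3249 with only the 2 groups, 3945 with array weights and 1972 under quantile normalization. The number was 734 of 9592 with the trend removed and 1177 to 1791 with a library left out. At d36, 3430 passed, and 2052 with only the 2 groups, 3693 under quantile normalization and 5686 with array weights. At d22 against d15, 437 passed, and 1281 with array weights. At d36 against d22, 1688 passed, and 1828 under quantile normalization and 1015 of 9592 with the trend removed. At d36 against d15, 1645 passed, and 2313 with the pan-endothelial mean equal and 401 with only the 2 groups. The F test passed 4102 entries, and 1789 to 7281 over the other settings.

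Leaving out each library in turn gave 0 to 0 members at d15, 2 to 3 at d22 and 4 to 7 at d36. Of all entries, 24 to 89, 1177 to 1791 and 2426 to 5013 passed there. At d22 against d15 it gave 0 to 1 members (136 to 494 of all entries), and at d36 against d22 0 to 1 (872 to 3771). At d36 against d15 it gave 1 to 2 members (897 to 2975), and the F test gave 3 to 6 (2982 to 6294). Shared replicate numbers did not pair the libraries: over 9 pairs r was -0.11 to 0.22, and a library correlated best with its own number in 4 of 18 cases. With the replicate number as a block, 2 members passed at d36 against d0, 1 at d22 against d15, 0 at d36 against d15 and 3 in the F test. Of all entries, 102, 1293 and 1134 passed at d15, d22 and d36 against d0 with that block. It passed 735 entries at d22 against d15 and 465 at d36 against d15. With the block, Ocln was at 0.034 at d36 against d22 and 0.075 at d36 against d15.

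Over all members and comparisons, 633 of 720 log2 fold changes under another setting kept their direction and their side of the threshold, 20 lost their call, 34 gained one and 33 turned. Of those that turned, Ocln at d36 passed with the trend removed (adjusted p = 0.0400). With the length and GC trend removed, Ocln was at -0.14 (d22), -0.31 (d36) and -0.14 (d22 against d15), Tjp1 at -0.029 (d36 against d15) and Icam2 at 0.036 (d22 against d15). With equal medians, Ocln was at -0.11 (d36) and -0.049 (d22 against d15), Tjp1 at -0.0019 (d36 against d15) and Pecam1 at -0.030 (d22). With the pan-endothelial mean equal, Ocln was at -0.086 (d15), -0.12 (d22), -0.035 (d36), -0.033 (d22 against d15), 0.084 (d36 against d22) and 0.052 (d36 against d15), Pecam1 at -0.082 (d15), -0.19 (d22) and 0.025 (d36 against d22), and Esam at -0.16 (d15). In the same setting at d36 against d22, Esam was at 0.051, Cldn5 at 0.11, Icam2 at 0.10, Robo4 at 0.011 and Tjp1 at 0.13. Under quantile normalization, Pecam1 was at -0.039 (d15), -0.034 (d22) and 0.0051 (d22 against d15), Icam2 at 0.091 (d22 against d15), Ocln at -0.0067 (d36), Esam at -0.059 (d15) and Cdh5 at 0.040 (d22 against d15).

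With single libraries left out, 19 of 480 values turned. Ranges were -0.072 to 0.023 for Cdh5 and -0.026 to 0.080 for Esam at d15, -0.054 to 0.096 for Pecam1 at d22, and -0.020 to 0.10 for Ocln at d36. At d22 against d15 they were -0.065 to 0.078 for Ocln and -0.15 to 0.0032 for Pecam1. At d36 against d22 they were -0.17 to 0.17 for Cldn5, -0.10 to 0.0018 for Ocln, -0.16 to 0.10 for Tjp1 and -0.18 to 0.052 for Icam2. At d36 against d15 they were -0.13 to 0.014 for Ocln and -0.49 to 0.079 for Jam2. By the estimated depth, the lowest member value corresponds to about 2155 reads per kilobase, and counting error was not computed.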
